A study of Mus musculus with 37 samples.

Results

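TRBV3 is 1 of 21 variable (V) segments of the mouse T cell receptor beta (TRB) locus that the deposited clonotype tables list. Every clonotype whose best V assignment was TRBV3 was taken, which gave 236558 of 1704980 listed clonotypes (13.9%) in 37 libraries, and 129464 of 1002058 distinct clonotypes after merging those of equal V, J and amino acid CDR3. TRBV3 was chosen by its share of normalised counts in these libraries, so the level of that share is given as a description. By that share it was not the most used segment: it had rank 3, with 14.4% ± 2.94 (SD, n = 37), behind TRBV4 with 20.4% ± 1.55 and TRBV5 with 15.1% ± 1.88. Normalised counts are here the values that the authors head Normalized clone count. By their other normalised values, headed nb.clone.count, TRBV3 had rank 5 (10.6% ± 2.2). In raw reads it had rank 5 (10.2% ± 2.02), and by number of clonotypes rank 3 (13.5% ± 1.15). The assignment was rarely shared with another segment, since 0.245% of TRBV3 clonotypes carried more than 1 V hit.

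Each library came from lymph node DNA of 1 mouse. The 32 MMTV-PyMT females carry an oncogene that a mammary tumor virus promoter drives in mammary epithelium. They received PTX (10 mg/kg every 5 days from 85 days of age), alone or with PLX3397 in the chow (PLX, an inhibitor of the macrophage receptor CSF1R, 40 mg/kg/day from 80 days). The mice of the R and NR groups received PTX with PLX and, in addition, an antibody against PD-1, an inhibitory receptor of T cells (aPD-1, first 1.0 mg at 87 days of age, then 0.5 mg at intervals of 5 days), for which rat IgG2a served as isotype control. The labels do not spell out R and NR. The prefixes d105 and d95 give the day to which a library belongs. The d105 libraries come from 6 R, 4 NR and 6 PLX+PTX mice and 2 mice on PTX alone. The other d105 libraries come from 5 FVBN mice of the group WTNT, for which no drug is listed. The d95 libraries come from 5 R, 3 NR and 3 mice each of PLX+PTX and PTX. Any comparison of MMTV-PyMT with WTNT mice therefore joins genotype and drug treatment, which cannot be told apart. BrdU was injected before collection and tissues were digested to single cells. The tables hold TRB sequences alone, so the tissue could not be checked against marker genes.

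A V segment encodes the CDR1 and CDR2 loops of the beta chain, which mostly touch the MHC molecule, and the start of the CDR3, the loop that mostly touches the peptide. During T cell development a diversity (D) segment joins a joining (J) segment and the V segment joins them, while enzymes trim the ends and insert untemplated bases. In genomic DNA each read stands for a rearranged gene, not for a transcript. The Trbv3 gene lies between Trbv2 and Trbv4 on chromosome 6 in the GRCm38 gene table, upstream of the D and J clusters.

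The V-encoded start of the CDR3 and the forms that recur between mice show what a TRBV3 rearrangement is made of. Untrimmed TRBV3 clonotypes began with 17 V bases, which were identical in 96.7% of 6706 such clonotypes. For the 2 TRBV3 clonotypes found in all 37 libraries, TRBJ2-7 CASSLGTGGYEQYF and TRBJ2-7 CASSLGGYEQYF, the 3 most widespread nucleotide forms are given, with capitals for bases that the tables assign to no V, D or J segment.
V start: tgtgccagcagcttagc
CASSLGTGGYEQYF form 1: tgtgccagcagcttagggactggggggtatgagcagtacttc
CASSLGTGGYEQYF form 2: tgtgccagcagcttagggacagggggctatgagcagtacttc
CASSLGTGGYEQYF form 3: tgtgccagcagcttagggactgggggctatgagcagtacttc
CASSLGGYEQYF form 1: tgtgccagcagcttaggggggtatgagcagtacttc
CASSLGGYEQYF form 2: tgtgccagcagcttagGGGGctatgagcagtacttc
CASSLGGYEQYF form 3: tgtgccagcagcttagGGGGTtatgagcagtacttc
All 6 forms keep 16 V bases, so 1 base was trimmed from the V end. The 3 forms of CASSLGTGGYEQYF hold 0 inserted bases, and the tables assign TRBD2 to forms 1 and 3 and TRBD1 to form 2. They were found in 26, 23 and 19 libraries. For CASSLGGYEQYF the first form was assigned to TRBD1 with 0 inserted bases and was found in 23 libraries. Its forms 2 and 3 have no D assignment, so 4 and 5 bases count as inserted, and they were found in 19 and 13 libraries. Runs of G this short occur in both D segments, so the count of inserted bases depends on the D assignment.

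TRBV3 held a steady share at d105 and a scattered one at d95. At d105 it took 13.4% of normalised counts in the lowest library and 18.4% in the highest, with a median of 15.85%. In the d105 R mice the lowest, median and highest values were 13.4%, 16.02% and 16.8%. The d105 NR mice had 18.4%, 17.9%, 15.85% and 15.6%. The d105 PLX+PTX mice ran from 15.2% over a median of 16.03% to 16.4%. The 2 d105 PTX mice had 17% and 16.7%, and the 5 WTNT mice had 15.9%, 15.5%, 15.2%, 15.15% and 15.6%. The PTX mice lay above every d105 PLX+PTX and WTNT mouse, and all other pairs of d105 groups overlapped.

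At d95 the R mice had 14.8%, 14.0%, 13.4%, 14.3% and 10.35%, and the NR mice had 14.1%, 12.7% and 15.6%. The d95 PLX+PTX mice had 13.2%, 5.14% and 8.27%, and the d95 PTX mice had 10.5%, 10.5% and 7.33%. R replicate 5, PLX+PTX replicates 2 and 3 and all 3 PTX mice thus lay at 10.5% or less, where no other library lay. In order of the group means, d105 NR (16.95% ± 1.43), d105 PTX (16.9% ± 0.191), d105 PLX+PTX (15.9% ± 0.503), d105 R (15.6% ± 1.28) and WTNT (15.5% ± 0.295) stood above d95 NR (14.1% ± 1.44), d95 R (13.4% ± 1.76), d95 PTX (9.43% ± 1.82) and d95 PLX+PTX (8.86% ± 4.04). Each neighbouring pair in this order overlapped, except d105 PTX and d105 PLX+PTX.

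**Figure D1:**
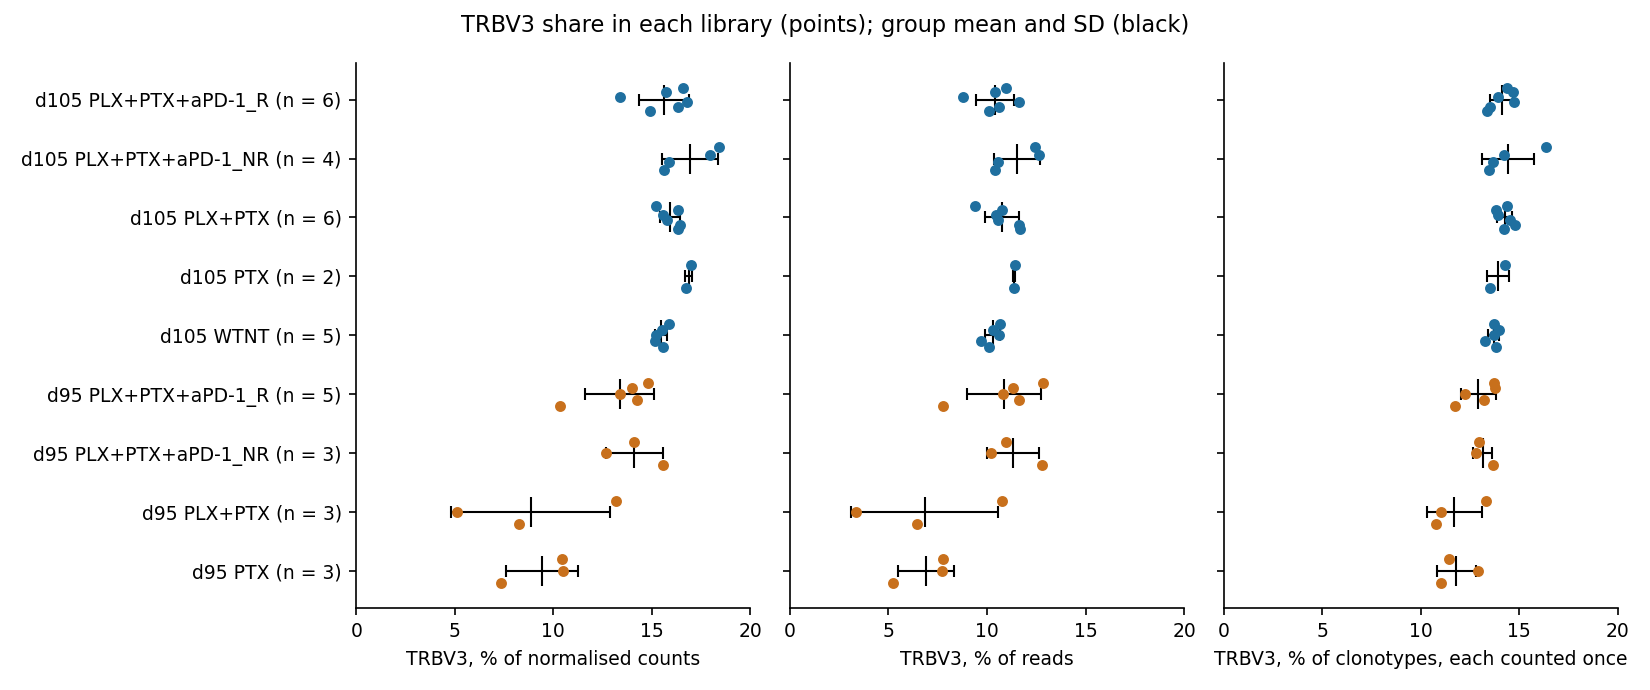
Each point is 1 library. The x axes give the share of TRBV3 in percent of normalised counts, of reads and of clonotypes counted once; rows are the 9 groups (blue d105, orange d95), and black marks are group means with SD. The d105 groups cluster between 13.4% and 18.4% of normalised counts, and the low d95 libraries are less far apart when clonotypes are counted once.

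The 6 low d95 libraries were low in reads per clonotype more than in number of clonotypes. They held 222369 to 509898 reads in all, while d95 R replicate 3, R replicate 4 and NR replicate 2, with 432954, 474887 and 416493 reads, had TRBV3 shares of 13.4%, 14.3% and 12.7%. In d95 PLX+PTX replicate 2 a TRBV3 clonotype held on average 8.39 reads and a clonotype of the other segments 30.1, a ratio of 0.279. This ratio was 0.446 to 0.654 in the other 5 low libraries and 0.775 to 0.928 in the remaining 8 of d95. Counted once per clonotype, TRBV3 made up 10.8% to 12.9% of clonotypes in the 6 low libraries and 12.3% to 13.8% in the other 8. As reads, the lowest share was 3.34% (95% Wilson interval 3.28 to 3.40, counting error only) in PLX+PTX replicate 2 and the highest d95 share was 12.9% (12.8 to 12.9) in R replicate 1.

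No treatment comparison within a day called the TRBV3 share, by limma on log2 of the percent plus 0.01 with Benjamini-Hochberg adjustment over 24 V and J segments. Over all segments 0% were called in each of the 7 comparisons. At d105 the log2 difference was -0.12 ± 0.056 (SE, limma adjusted p 0.178) for R against NR, 0.015 ± 0.045 (0.881) for aPD-1 added to PLX+PTX, -0.08 ± 0.071 (0.917) for PLX added to PTX and 0.06 ± 0.044 (0.831) for the 18 MMTV-PyMT mice against WTNT. At d95 it was -0.08 ± 0.246 (0.868) for R against NR and -0.175 ± 0.275 (0.975) for PLX added to PTX. Adding aPD-1 at d95 gave the largest difference of the 7, 0.72 ± 0.228 (limma adjusted p 0.199, unadjusted 0.00853). This value rested on the d95 PLX+PTX group: without its replicate 1 it was 1.055 (adjusted p 0.00487), and without its replicate 2 it was 0.378 (0.866). The difference of the aPD-1 effect between the days was -0.70 ± 0.203 (limma adjusted p 0.0437), and 4.17% of segments were called in this contrast, TRBV3 being the single one. edgeR (adjusted p 0.0283) and DESeq2 (0.0314) on reads passed as well. In 22 of the 27 limma fits that left out 1 library it missed the threshold, with -0.363 (0.855) at one end, without d95 PLX+PTX replicate 2, and -1.04 (3.89e-05) at the other, without replicate 1. Fits of reads with edgeR and DESeq2 called the TRBV3 share in 0 of the 7 within-day comparisons, and 2 of the 7 unadjusted limma p-values were under 0.05. The mouse numbers of the d105 MMTV-PyMT libraries form a lower and a higher block. Only R and PLX+PTX mice lie in the lower block, so the d105 treatment groups are uneven between the blocks. What the blocks stand for is not given.

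Between the days the TRBV3 share was higher at d105, by 0.53 ± 0.102 on the log2 scale (limma with treatment in the model, 18 against 14 mice, adjusted p 3e-05). This was 1 call among 20 of 24 segments (83.3%), so most segments differed between the days. On reads, edgeR gave 0.18 (adjusted p 0.125) and DESeq2 0.17 (0.138), neither past the threshold. The reads per library at d105 (1090573 to 2831566) and d95 (90648 to 917752) did not overlap. The mouse numbers in the labels did not overlap between the days either. Day, sequencing yield and set of mice cannot be told apart in any comparison of the days.

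TRBV3 joined all 13 J segments, and which partners led depended on how clonotypes were weighed. By normalised counts the leading partners over all libraries were TRBJ2-7 (29.5% ± 11.8 of TRBV3), TRBJ2-4 (14.6% ± 4.88), TRBJ2-5 (14.2% ± 5.37), TRBJ2-3 (10.5% ± 4.4) and TRBJ2-1 (10.2% ± 2.28). TRBJ2-2 took 6.21% ± 2.12 and TRBJ1-1 6.05% ± 1.20, while TRBJ1-3, TRBJ1-6, TRBJ1-4 and TRBJ1-2 took between 1.68% and 3.17% each. TRBJ1-5 took 0.122% ± 0.0753, and TRBJ1-7, which held 26 listed TRBV3 clonotypes, 0.00518% ± 0.00922. By reads TRBJ2-7 took 45.7% ± 5.71, TRBJ2-2 14.8% ± 1.33 and TRBJ1-1 13.1% ± 2.02, while TRBJ2-1, TRBJ2-3, TRBJ2-4 and TRBJ2-5 took between 2.33% and 3.66% each. By number of clonotypes TRBJ2-7 took 26.7% ± 4.20 and those 4 segments between 9.65% and 11.6% each.

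The gap between these orders lies in the reads per clonotype. TRBV3 clonotypes with TRBJ2-3 held 4.64 ± 2.70 reads each against 25.4 ± 8.06 for the other V segments with the same J, and those with TRBJ2-4 held 5.08 ± 2.97 against 26.5 ± 9.11. With TRBJ2-5 the values were 5.99 ± 3.62 and 27.5 ± 9.58, with TRBJ2-1 6.65 ± 3.67 and 26.6 ± 8.11, and with TRBJ1-4 5.45 ± 3.05 and 23.5 ± 8.58. In these 5 pairs TRBV3 was lower in 37 of 37 libraries. With TRBJ2-7 the order turned, with 37 ± 14.3 reads against 32.3 ± 10.0 and TRBV3 higher in 30 of 37 libraries. The authors' factors from reads to normalised counts followed this pattern: 13.8 for TRBV3 with TRBJ2-3, 18.3 with TRBJ2-4, 13.2 with TRBJ2-5, 8.15 with TRBJ2-1 and 9.45 with TRBJ1-4, against 1.63 with TRBJ2-7 and 0.577 with TRBJ1-2. A normalised count for the first 5 pairs therefore rests on few reads. The factors of the authors' other normalised values, nb.clone.count, were smaller. For the same 5 pairs, in that order, they were 4.38, 6.33, 3.45, 3.15 and 3.66.

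**Figure D2:**
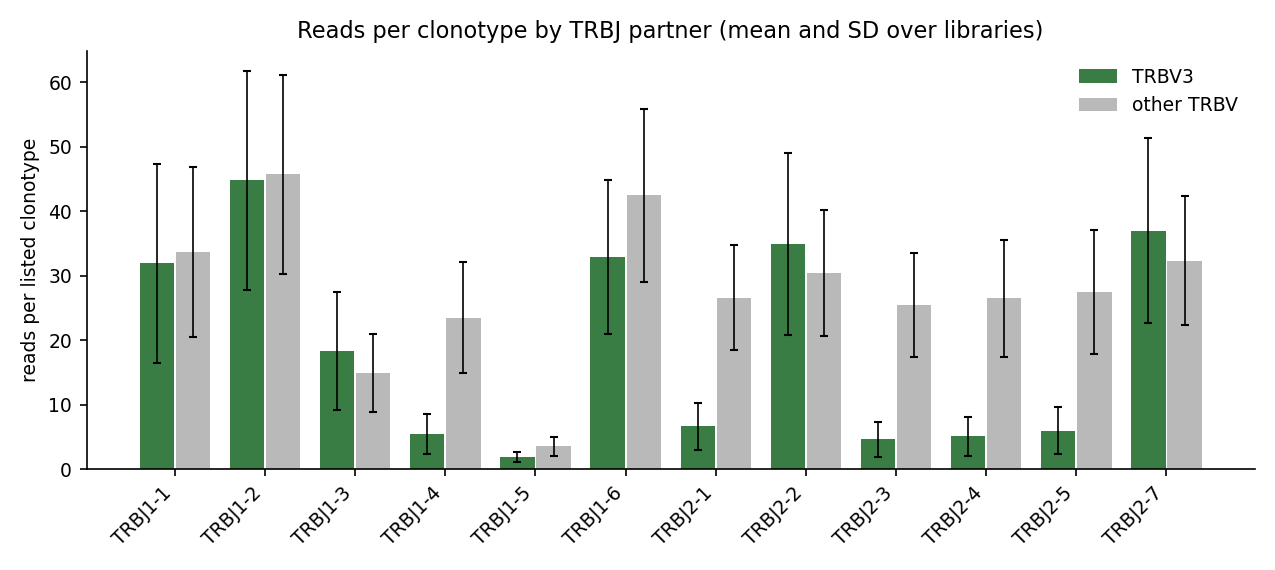
Bars give the mean number of reads per listed clonotype (y axis) for each J partner (x axis), with SD over libraries, for TRBV3 (green) and all other V segments (grey). TRBV3 falls to 4.64 to 6.65 reads with TRBJ2-3, TRBJ2-4, TRBJ1-4, TRBJ2-5 and TRBJ2-1, where the other segments hold 23.5 to 27.5.

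Set against the other V segments of the same library, some J preferences of TRBV3 kept their direction under each weighting and others turned. By sign-flip permutation tests over 37 libraries (21 measures, 100000 resamples, 2-sided, Benjamini-Hochberg), TRBJ1-6 made up 2.08% ± 1.12 of TRBV3 and 3.72% ± 1.27 of the other segments (lower in 37 of 37 libraries, adjusted p 1.5e-05). The unadjusted p behind it, 1e-05, is the smallest that 100000 resamples can give. TRBJ1-4 took 1.71% ± 0.430 against 2.62% ± 0.310 (lower in 37 of 37, 1.5e-05), and TRBJ2-5 took 14.2% ± 5.37 against 17.3% ± 4.37 (lower in 37 of 37, 1.5e-05). TRBJ1-3 was higher, with 3.17% ± 0.967 against 2.41% ± 0.307 (32 of 37, 1.5e-05). These 4 kept their direction in reads, with each clonotype counted once and within each day. TRBJ2-7 did not: by normalised counts it was lower in TRBV3 (29.5% against 34.6% ± 4.92, higher in 12 of 37, adjusted p 0.000383), but it was higher by 21.8 percentage points in reads, by 5.06 with each clonotype counted once and by 3.74 in the d95 libraries alone. TRBJ2-3 and TRBJ2-1, higher by 3.15 (1.5e-05) and 0.774 (0.0202) percentage points in normalised counts, differed by -7.94 and -8.20 percentage points in reads.

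TRBJ2-7, TRBJ2-5, TRBJ2-4, TRBJ2-3 and TRBJ2-1 shifted between the days more in TRBV3 than in the other segments. So did the mean of TRBJ2-2 and, by smaller amounts, the means of TRBJ1-1, TRBJ1-2, TRBJ1-3 and TRBJ1-4. TRBJ2-2 took 4.70% and 8.69% of TRBV3 and 5.82% and 7.105% of the others (d105 and d95). TRBJ1-6, at 1.28% and 3.40% of TRBV3 and 2.77% and 5.29% of the others, and TRBJ1-5 did not shift more in TRBV3. TRBJ2-7 took 20.6% ± 2.19 of TRBV3 normalised counts at d105 (18% to 26.1%, n = 23) and 44.1% ± 2.44 at d95 (40.4% to 48.8%, n = 14), and the libraries of the days did not overlap. TRBJ2-4 went the other way, with 18.2% ± 1.15 at d105 and 8.56% ± 0.977 at d95, as did TRBJ2-5 (18.2% ± 1.44 and 7.59% ± 0.853), TRBJ2-3 (13.8% ± 1.23 and 5.12% ± 0.717) and TRBJ2-1 (11.85% ± 0.589 and 7.46% ± 0.977). In the fit of all V and J pairs 10 of 12 TRBV3 pairs passed the limma test (83.3%), where 76.1% of all pairs did, so the count of calls is near the background. Higher at d105 were 6 pairs (37.3% of all pairs were), led by TRBJ2-3 with 1.95 ± 0.137 log2 and TRBJ2-5 with 1.80 ± 0.116, followed by TRBJ2-4 (1.62 ± 0.118), TRBJ2-1 (1.21 ± 0.108), TRBJ1-5 (1.15 ± 0.412) and TRBJ1-4 (1.14 ± 0.228). Lower at d105 were 4 pairs (38.8% of all pairs were): TRBJ1-6 with -0.86 ± 0.096, TRBJ2-7 with -0.56 ± 0.099, TRBJ1-2 with -0.425 ± 0.068 and TRBJ2-2 with -0.355 ± 0.13. The 6 pairs higher at d105 are the 6 with the fewest reads per TRBV3 clonotype, between 1.92 and 6.65, and the part that sequencing yield had in this was not tested.

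A test added after the values were seen covered TRBJ2-7, TRBJ2-5, TRBJ2-4, TRBJ2-3 and TRBJ2-1 and no other partner. It compared the day shift of each percent in TRBV3 with that in the other segments of the same libraries. The TRBJ2-7 percent of normalised counts changed by -23.2 percentage points from d95 to d105 in TRBV3 and by -8.94 in the others, a difference of -14.3 (permutation of day within treatment, 100000 resamples, adjusted over 10 tests p 1.11e-05). Counted once per clonotype the changes were -7.12 and -0.735 (difference -6.39, 1.11e-05). TRBJ2-4 rose by 9.58 percentage points of normalised counts in TRBV3 and by 2.84 in the others (difference 6.74, 1.11e-05). Within a day 0 of 12 TRBV3 pairs passed in each of the 7 treatment comparisons. The share of all pairs called was 2.22% for PLX added to PTX at d105 and 0% in the other 6. At an unadjusted p under 0.05 there were 3 TRBV3 pairs for d105 R against NR and 10 for aPD-1 added at d95, and 0 in the other 5. Over all pairs the numbers for these 2 comparisons were 16 of 135 and 31 of 130. Without d95 PLX+PTX replicate 1, 11 pairs passed for aPD-1 added at d95.

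**Figure D3:**
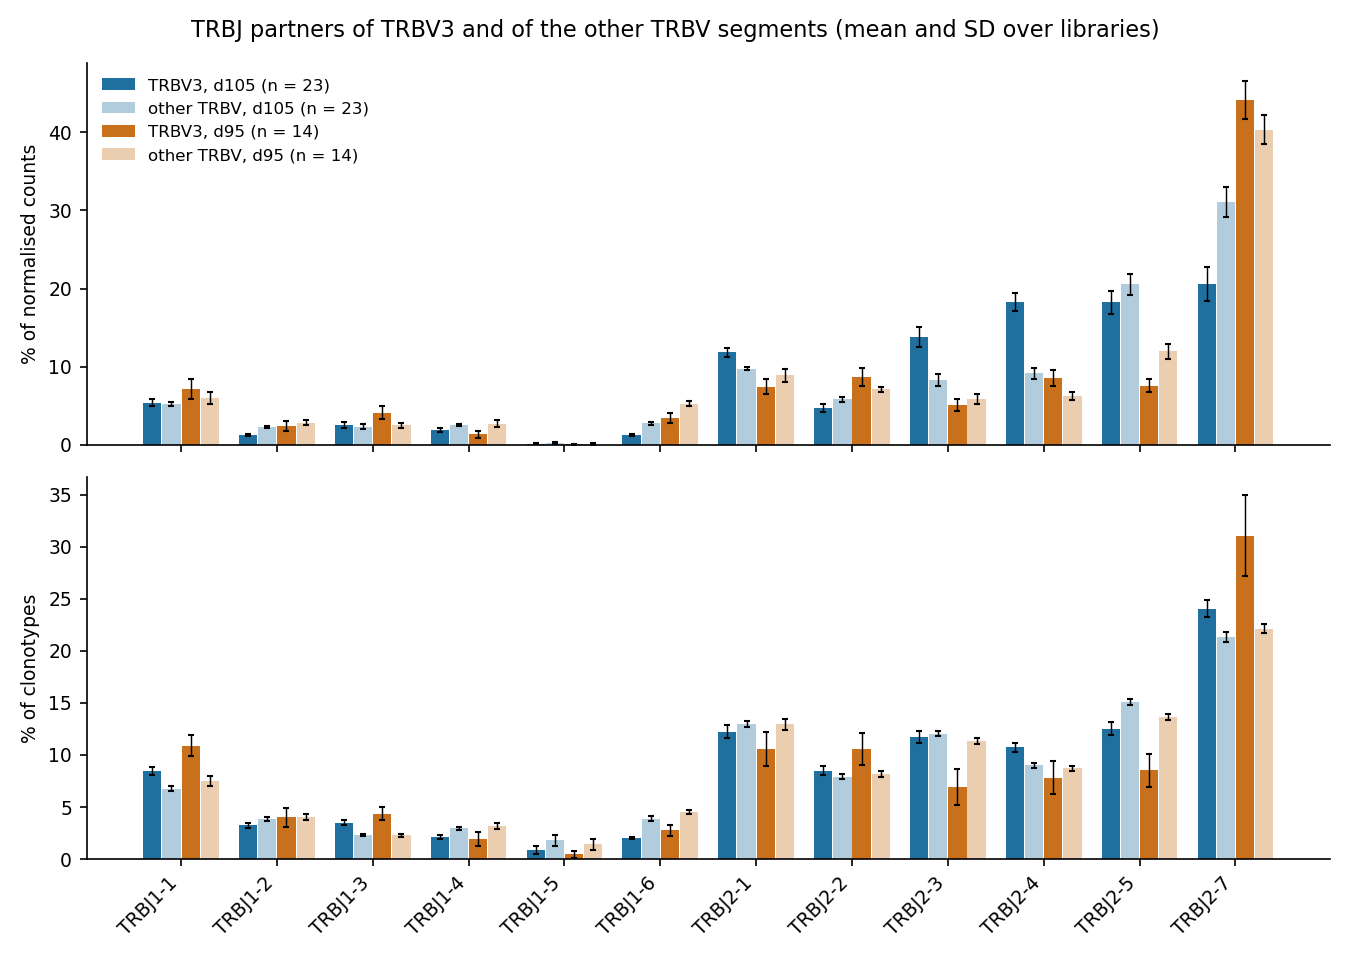
Bars give the mean percent of normalised counts (upper panel, y axis) and of clonotypes counted once (lower panel, y axis) that each J segment (x axis) takes, with SD over libraries; dark bars are TRBV3 and pale bars the other V segments, blue at d105 and orange at d95. TRBJ2-7 takes 20.6% of TRBV3 at d105 and 44.1% at d95 in normalised counts, and the other segments shift less.

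The first 4 residues of a TRBV3 CDR3 were nearly fixed and the fifth carried most of the V signature. With each clonotype counted once, position 2 was alanine in 99.5% ± 0.167 and position 3 serine in 99.3% ± 0.211 of TRBV3 clonotypes (n = 37), against 77.5% ± 0.560 and 78.8% ± 0.613 in the others. The others held threonine at position 2 in 18.6% ± 0.849 and cysteine at position 3 in 18.5% ± 0.85. They include TRBV1, which made up 16.1% ± 0.859 of all clonotypes and nearly always held an inner cysteine (99.7% of its normalised counts). Positions 2 and 3 were not compared without TRBV1, so this start is not shown to be particular to TRBV3. At position 5, leucine made up 47.4% ± 1.31 against 18.2% ± 0.447, serine 10.5% ± 0.566 against 3.49% ± 0.133 and phenylalanine 8.78% ± 0.718 against 1.57% ± 0.0763, each higher in 37 of 37 libraries. Glutamine, the main residue of the others there (21.6% ± 0.576), made up 1.92% ± 0.294. Leucine is what the germline start encodes at this place. At position 6, arginine was more frequent (15.1% ± 0.722 against 8.95% ± 0.294, higher in 37 of 37) and aspartate less (11.7% ± 0.571 against 17.4% ± 0.469, lower in 37 of 37). These residue counts are descriptions, with no test.

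A cysteine inside the CDR3 was seen in 0.136% ± 0.0647 of TRBV3 normalised counts and in 9.96% ± 2.66 of the other segments (lower in 37 of 37 libraries, sign-flip permutation adjusted p 1.5e-05). TRBV1 alone accounted for this, since 99.7% ± 0.0609 of its normalised counts held one. Against the other segments without TRBV1, a comparison chosen after the values were seen, the difference was -0.026 percentage points (0.162% ± 0.0344 in the others, permutation adjusted p 0.0535). Hydrophobic or aromatic residues (F, I, L, M, V, W or Y) at both positions 6 and 7, a feature that has been tied to self-reactive receptors, were found in 1.84% ± 0.284 of TRBV3 and 1.53% ± 0.176 of the others (higher in 31 of 37, adjusted p 1.5e-05). That direction turned in reads, where the difference was -0.237 percentage points, and with each clonotype counted once the difference was 0.0611 (permutation adjusted p 0.299).

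CDR3 length centred on 14 residues in TRBV3, which held 31.8% ± 0.828 of clonotypes, and on the same length in the others (30.1% ± 0.403). Lengths 12 and 13 were more frequent in TRBV3 (10.3% ± 1.09 and 23.2% ± 1.39 against 8.34% ± 0.390 and 19.9% ± 0.510), and lengths 15 and 16 less (20.9% ± 1.49 and 7.76% ± 1.04 against 24.7% ± 0.584 and 9.70% ± 0.592). Weighted by normalised counts the mean lengths were 13.77 ± 0.115 and 13.77 ± 0.0269 residues (permutation adjusted p 0.758). Counted once per clonotype the difference was -0.177 residues (TRBV3 shorter in 37 of 37 libraries, 1.46e-05), and in d105 libraries alone, by normalised counts, it was longer by 0.0648 (longer in 22 of 23, 1.17e-05). In d95 libraries alone the difference was -0.125 (longer in 1 of 14, permutation adjusted p 0.000525), so the equal means over all libraries join opposite directions by day.

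At the junction the V end was trimmed by 3.26 ± 0.0428 bases in TRBV3 and 2.82 ± 0.0334 in the others, higher in 37 of 37 libraries. The most common trimming took 5 bases (26.3% ± 0.879 of TRBV3 clonotypes), which leaves 12 V bases, the 4 codons of the fixed start. Trimming by 1 base followed with 18% ± 0.921, and 2.87% ± 0.270 of clonotypes kept the V end whole. Bases assigned to no segment numbered 3.61 ± 0.0819 per TRBV3 clonotype and 3.60 ± 0.0594 in the others. TRBD1 was assigned to 40.0% ± 1.05, TRBD2 to 37.1% ± 2.49 and no D segment to 22.9% ± 1.77 of TRBV3 clonotypes. With a TRBJ1 partner, 6.38% ± 1.23 were assigned to TRBD2, which lies downstream of the TRBJ1 cluster, and 61.1% ± 1.41 to TRBD1. With a TRBJ2 partner it was 45.6% ± 2.04 and 34.1% ± 0.870.

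**Figure D4:**
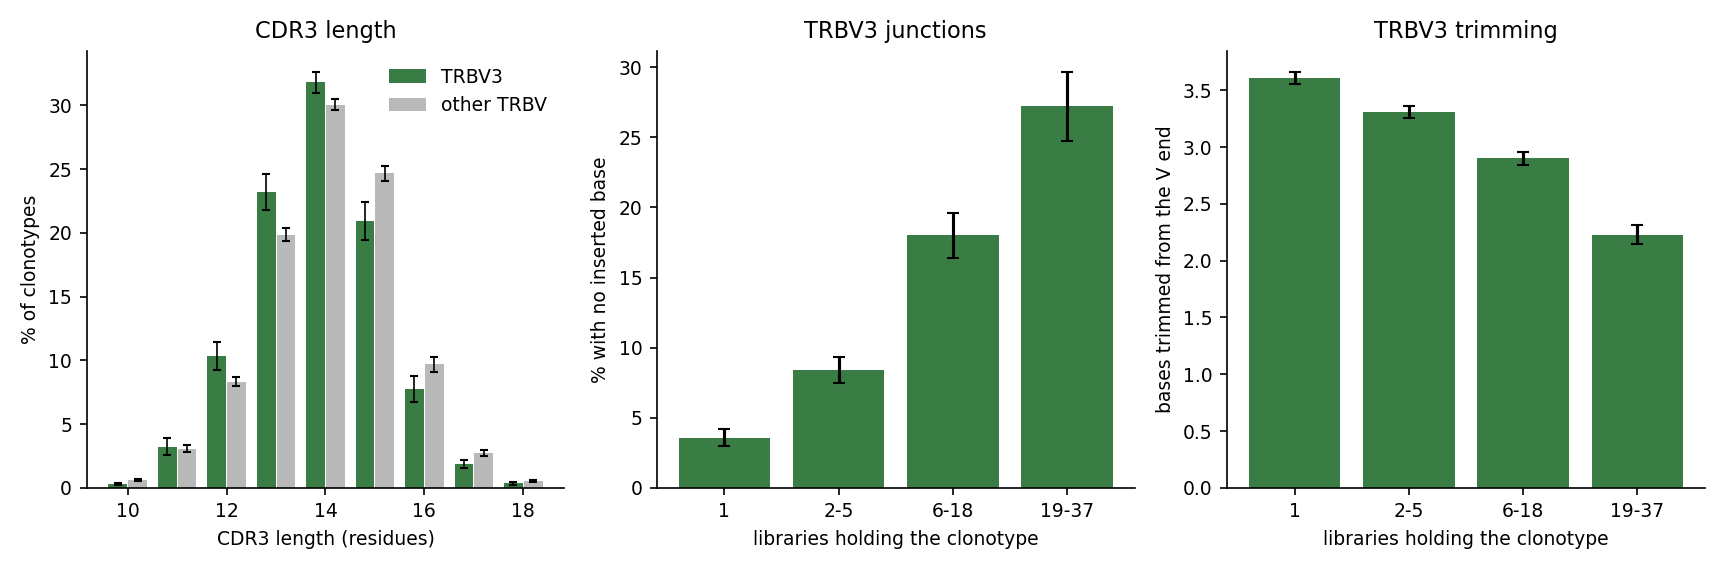
The left panel gives the percent of clonotypes (y axis) at each CDR3 length in residues (x axis) for TRBV3 (green) and the other V segments (grey). The middle and right panels give, for TRBV3 clonotypes grouped by the number of libraries that hold them (x axis), the percent with no inserted base and the mean number of bases trimmed from the V end (y axes). Bars are means with SD over libraries; clonotypes in 19 or more libraries have 27.2% without an inserted base, against 3.58% of those in 1 library.

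TRBV3 clonotypes found in many libraries were closer to germline than those found in 1. Of the 129464 merged TRBV3 clonotypes 100940 (78.0%, against 80.2% of all clonotypes) were found in 1 library, 23533 in 2 to 5, 4581 in 6 to 18 and 410 (0.317%) in 19 or more. TRBV3 made up 12.6% of all clonotypes found in 1 library and 16.1% of the 2554 found in at least 19. From the private to the most shared class the share of clonotypes with no inserted base went from 3.58% ± 0.608 over 8.40% ± 0.910 and 18% ± 1.62 to 27.2% ± 2.49, and V trimming from 3.61 ± 0.0550 bases to 2.23 ± 0.0852. The inserted bases went from 4.72 ± 0.0872 to 2.18 ± 0.128. Mean length went from 14.22 ± 0.0943 to 13.21 ± 0.109 residues, and the share with TRBJ2-7 from 21.8% ± 3.50 to 42.8% ± 5.40. The 410 most shared clonotypes held 10.6% ± 1.62 of TRBV3 normalised counts, against 8.97% ± 1.22 for the most shared clonotypes of the other segments (higher in 36 of 37 libraries, sign-flip permutation adjusted p 1.5e-05). In reads the values were 12.4% ± 1.07 and 9.15% ± 0.764 (37 of 37 libraries). TRBV3 clonotypes also had slightly more nucleotide forms per amino acid clonotype in a library, 1.083 ± 0.0300 against 1.073 ± 0.0220 (31 of 37, 2.8e-05), although in the d95 libraries alone the difference was -0.00022 (permutation adjusted p 0.925).

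The 8 most widespread TRBV3 clonotypes all began with CASSL or CASSF, and 7 of them used TRBJ2-7. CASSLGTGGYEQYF was found in 37 libraries, in 36 nucleotide forms, at 49.9 to 744 CPM (normalised counts scaled to a common total per library; median 168). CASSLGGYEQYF was found in 37, in 31 forms, at 39.0 to 728 CPM (median 122). The highest value of both lay in d95 NR replicate 1, the library with 90648 reads. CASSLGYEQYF (14 forms, median 154 CPM), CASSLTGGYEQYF (30 forms, 95.1) and TRBJ1-1 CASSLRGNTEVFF (42 forms, 86.2) were each found in 36 libraries. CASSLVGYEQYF (20 forms, 95.8), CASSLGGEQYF (20 forms, 90.4) and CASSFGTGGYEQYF (18 forms, 78.4) were each found in 35. At least 1 missing library of each of these 6 was a d95 one, except for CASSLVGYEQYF, which had no read in d105 PLX+PTX replicate 2 and d105 PTX replicate 2.

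**Figure D5:**
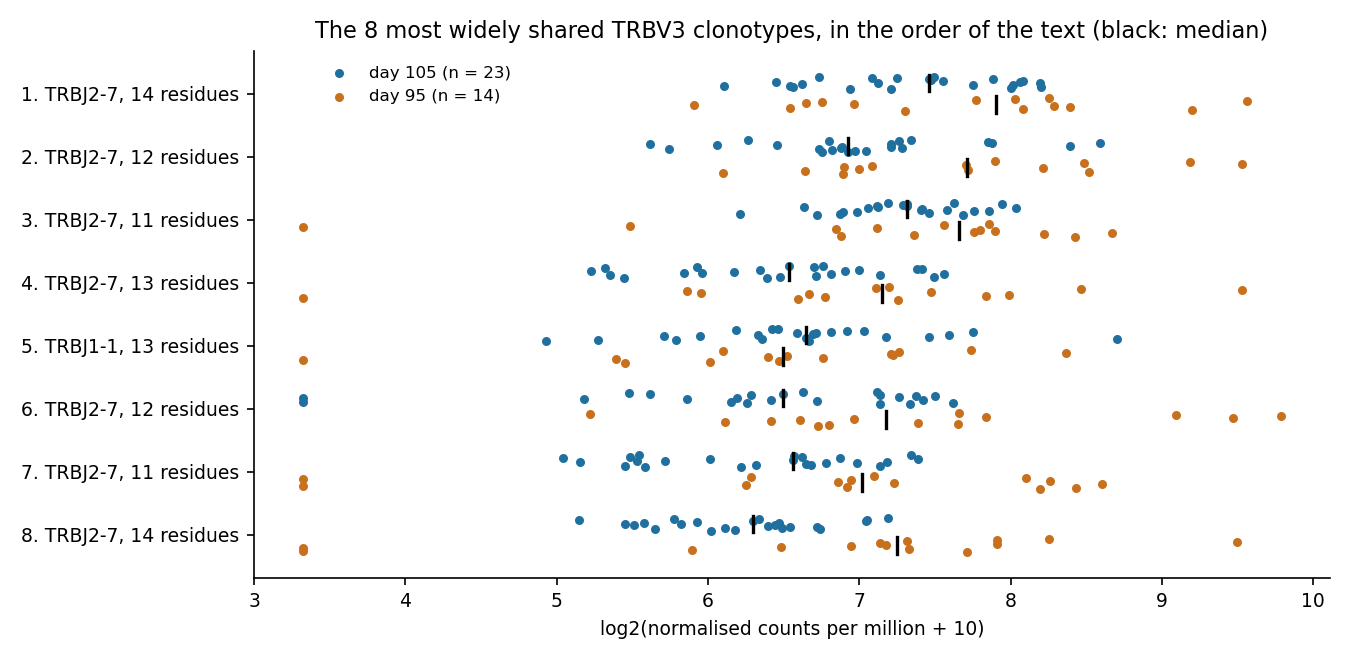
Each point is 1 library; the x axis is log2 of CPM plus 10, rows are the 8 TRBV3 clonotypes found in the most libraries in the order 1 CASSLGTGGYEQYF, 2 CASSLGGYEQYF, 3 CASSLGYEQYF, 4 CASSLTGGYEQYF, 5 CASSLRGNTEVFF, 6 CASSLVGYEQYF, 7 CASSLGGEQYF and 8 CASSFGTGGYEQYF, blue d105 and orange d95, and black bars are medians. The points at the left edge are libraries with no read, and the highest point of rows 1, 2, 4, 6 and 8 is d95 NR replicate 1.

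No shared TRBV3 clonotype was called between treatments within a day. A clonotype was tested where 50% or more of all libraries of that day held it, which was so for 876 of TRBV3 at d105 and 131 at d95. The test was limma on log2 of CPM plus 10. The calls over all clonotypes were 0% in the 4 comparisons at d105 and for aPD-1 added at d95, 0.207% for d95 R against NR and 0.104% for PLX added to PTX at d95. At an unadjusted limma p under 0.05 there were 57, 42, 100 and 58 TRBV3 clonotypes for R against NR, aPD-1 added, PLX added and MMTV-PyMT against WTNT at d105, and 13, 6 and 8 for the first 3 of these at d95. Over all clonotypes the numbers were 289, 259, 520 and 277 of 5242 at d105, and 79, 64 and 59 of 964 at d95.

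Between the days 56 of 392 TRBV3 clonotypes (14.3%) passed the limma test, where 5.64% of all 2394 did. Of these, 55 were higher at d105 (14.0%, against 5.26% of all clonotypes) and 1 was lower (0.376% of all clonotypes were). The filter, 50% of the 32 libraries compared (18 of d105 and 14 of d95), favoured this direction. A clonotype found only at d105 could pass it and one found only at d95 could not. The same filter held for the other V segments, and no conclusion is drawn from the direction of the calls or medians. By partner, 18 of 38 tested clonotypes with TRBJ2-5, 13 of 39 with TRBJ2-3, 12 of 32 with TRBJ2-4 and 10 of 30 with TRBJ2-1 were higher, and 2 of 157 with TRBJ2-7. In the other V segments 25 of 309, 6 of 296, 3 of 148, 8 of 223 and, with TRBJ2-7, 23 of 626 were higher. The medians of the log2 differences of all tested TRBV3 clonotypes were 1.31, 1.19, 1.27 and 0.97 for the first 4 partners and 0.09 for TRBJ2-7, and 0.31, 0.12, -0.06 and 0.07 for the other V segments with those 4 partners, with 0.28 for TRBJ2-7. The TRBV3 calls thus fell mostly in the pairs with few reads per clonotype, and the part of sequencing yield was not tested.

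The clonotypes named here as higher at d105 are those with the largest differences among CDR3s of up to 14 residues. The filter that admitted them could be passed through d105 libraries alone, so their differences and p-values are descriptions. No conclusion on a rise of single clonotypes is drawn from them. With their partners TRBJ2-1, TRBJ2-3, TRBJ2-4 and TRBJ2-5, TRBV3 clonotypes held on average only 4.64 to 6.65 reads each. TRBJ2-5 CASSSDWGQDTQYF was higher at d105 by 2.42 ± 0.418 log2 (limma adjusted p 0.000411), TRBJ2-5 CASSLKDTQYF by 2.28 ± 0.352 (0.000102) and TRBJ2-5 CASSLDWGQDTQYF by 2.12 ± 0.423 (0.0018). TRBJ2-4 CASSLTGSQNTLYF (2.15 ± 0.436), TRBJ2-5 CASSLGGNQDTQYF (2.11 ± 0.437), TRBJ2-3 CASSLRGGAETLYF (2.09 ± 0.381), TRBJ2-1 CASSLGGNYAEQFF (2.08 ± 0.428), TRBJ2-5 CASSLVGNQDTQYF (2.065 ± 0.373) and TRBJ2-5 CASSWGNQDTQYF (2.06 ± 0.485) followed. TRBJ1-6 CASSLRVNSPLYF was the 1 clonotype lower at d105, and its difference was the largest in size of all TRBV3 calls, with -2.91 ± 0.412 (limma adjusted p 3.18e-05).

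The biggest TRBV3 clone of each library held a small share. As a single nucleotide sequence it held at most 0.118% of normalised counts, in d95 NR replicate 1, with a median of 0.0404% over the 37 libraries. With nucleotide forms merged, TRBJ2-7 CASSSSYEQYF held 0.13% in that library, on 100 reads. By reads the biggest single sequence held at most 0.173%, in d95 NR replicate 3, where it had rank 1 among all clonotypes. In d105 R replicate 4, d105 NR replicates 2 and 3 and d105 PLX+PTX replicate 2 it had rank 2 by reads. By normalised counts it ranked 3rd to 96th among all clonotypes of its library at d105, and 9th to 689th at d95. Among the 100 largest clonotypes of a library TRBV3 supplied 2.54 ± 2.28, against 13.5% of all clonotypes, and less than its share in 37 of 37 libraries (sign-flip permutation adjusted p 1.5e-05). It supplied 10 in 1 R mouse of d105, and 0 in 9 of the 14 d95 libraries, which belong to all 4 groups of that day. Ranked by reads it supplied 7.76 ± 4.91 of the 100, below its share of clonotypes in 33 of 37 libraries (1.17e-05). Reads per clonotype were 21.2 ± 7.51 in TRBV3 and 29.3 ± 9.34 in the others (lower in 37 of 37, 1.5e-05).

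The most abundant TRBV3 clonotype differed between groups, and in some it was uneven between mice. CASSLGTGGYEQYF led in d105 PLX+PTX (202 ± 77.3 CPM, n = 6) and d95 PTX (328 ± 222, n = 3), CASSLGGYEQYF in d95 R (312 ± 166, n = 5) and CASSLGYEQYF in d95 PLX+PTX (297 ± 95.6, n = 3), all with TRBJ2-7. TRBJ2-4 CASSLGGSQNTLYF led in WTNT, at 148 to 265 CPM in all 5 mice, and TRBJ2-4 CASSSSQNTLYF in d105 R (173 ± 123, found in 5 of 6). In d105 NR the leader was TRBJ2-7 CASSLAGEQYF, with 20.2 to 918 CPM, the high value in replicate 2. TRBJ2-7 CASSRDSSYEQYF led in d95 NR with 1006 CPM in replicate 3 and no read in 1 of the 3 mice. TRBJ2-3 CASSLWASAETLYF led in the 2 d105 PTX mice (481 and 86.0 CPM) on 131 reads, and was found in 4 libraries in all. The leading nucleotide form is shown for these last 3, which are not among the most widespread clonotypes, again with bases of no segment in capitals.
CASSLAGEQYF: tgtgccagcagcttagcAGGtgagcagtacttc
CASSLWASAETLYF: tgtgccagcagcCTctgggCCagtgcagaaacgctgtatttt
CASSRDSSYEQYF: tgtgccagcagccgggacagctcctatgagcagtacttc
The first keeps all 17 V bases, the second the 12 bases of the fixed start, and the third holds no inserted base.

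Of 8 measures taken within TRBV3 (CDR3 length, TRBJ2 share, residues 6 and 7, inner cysteine, clonality, clonotype number after thinning, top 10 share and public share), none passed the test between treatments within a day. The 64 tests, 8 measures in 8 comparisons, were adjusted together. Within a day 0 of 56 exact permutation tests passed and 3 had an unadjusted p under 0.05, with a lowest adjusted p of 0.163. The groups allow 20 regroupings for PLX added at d95, 28 at d105, 56 for d95 R against NR and 165 for aPD-1 added at d95. These are too few for a single test of these comparisons to pass the adjustment. The tests therefore say nothing on whether these groups differ. After thinning to 9954 TRBV3 reads the 3 d95 NR mice had 320, 1367 and 1681 TRBV3 clonotypes and the 5 R mice 1791 to 2578, with no overlap (1123 ± 713 against 2164 ± 338). The exact permutation p, 0.0179 (adjusted 0.163), is the smallest that 3 against 5 mice can give. The NR mice include the library with 320 TRBV3 clonotypes and 9954 TRBV3 reads, which thinning left whole.

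Between the days 6 of 8 measures passed (day permuted within treatment, 100000 resamples, 18 against 14 mice). TRBV3 CDR3s were 13.85 ± 0.0322 residues long at d105 and 13.63 ± 0.0676 at d95 (adjusted p 0.00016). The thinned clonotype number was 4216 ± 774 and 1696 ± 565 (0.00016), and the public clonotypes held 9.43% ± 0.574 and 12.4% ± 0.987 (0.00016). The 10 most abundant clonotypes held 1.45% ± 0.373 and 2.60% ± 1.46 (0.00064). The TRBJ2 share (87.45% ± 0.934 and 81.5% ± 1.499, 0.00016) and clonality (0.0397 ± 0.00442 and 0.0334 ± 0.00160, 0.000853) were higher at d105 in normalised counts, and both turned in reads, to -0.734 percentage points (permutation adjusted p 0.31) and -0.0061 (0.149).

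The segment whose log2 share moved most like that of TRBV3 over the 37 libraries was TRBV20 (Pearson r 0.94), with r 0.608 among the 23 d105 and 0.967 among the 14 d95 libraries. TRBV26 (0.717) and TRBV4 (0.667) followed, with r -0.041 and -0.237 within d105 and 0.642 and 0.76 within d95. TRBV1 (-0.922), TRBV24 (-0.891) and TRBV19 (-0.502) stood at the other end, with -0.616, -0.54 and -0.13 within d105 and -0.896, -0.929 and -0.0386 within d95. These are descriptions: shares in a library sum to a fixed total, and the points share depth and day.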

How the data were processed

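Genomic DNA of mouse lymph nodes served to sequence TRB rearrangements, 1 library per mouse, 37 in all. Per the file headers, the authors deposited for each clonotype its segments, CDR3 and clone count, in counts (whole reads, not normalized). The 2 deposited normalised columns are scores: the authors multiplied each count by 1 fixed factor per V and J pair. Of these, Normalized clone count was used as normalised counts. The origin of the factors, the aligner, the caller and the build: not given in the sources used here. From these files the share of TRBV3 was computed as a percent of normalised counts, and log2 values were fitted by limma 3.58.1 (R 4.3.3) with a pseudocount of 0.01% (segments of at least 0.1%), 0.001% (pairs of at least 0.01%) or 10 CPM (clonotypes found in 50% of libraries). The d105 libraries shared a fit, the d95 libraries another, and the 32 MMTV-PyMT libraries one with treatment as a term. Other tests were permutation tests over mice. An adjusted p under 0.05 counted as a call. edgeR 4.0.16 and DESeq2 1.42.0 on reads were alternatives. The limma and permutation procedures were tested on simulated data. Comparisons added after seeing the data are named as such.

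Libraries held 90648 to 2831566 reads, and TRBV3 9954 to 297901. Reads come from PCR without molecular identifiers, so intervals cover counting error only. No pair of libraries shared more than 9.69% of the TRBV3 nucleotide clonotypes of the smaller one. The labels give a separate mouse number for each of the 32 MMTV-PyMT libraries, and none for the WTNT libraries. Named were TRBV3 in every library, the next 2 segments by share, all J partners, the 8 clonotypes in most libraries with the leading nucleotide forms of the first 2, the leading clonotype of each group, up to 10 calls per direction with those over 14 residues left out, and the 3 most and least similar segments. The segment, lists and tests were chosen with earlier results of these data known.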

Additional observations from a re-analysis of the deposited data

Results flagged for a closer look

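In d105 NR replicate 2 a TRBV3 clonotype held 0.87 times the reads of a clonotype of the other segments, against at most 0.748 in the other 3 mice of the group. In d105 WTNT replicate 5 TRBV3 clonality was 0.0419, against at most 0.037 in the other 4. In d105 NR replicate 3 the thinned TRBV3 clonotype number was 4886, against at most 4213 in the other 3. Each lies outside its group by Dixon's criterion at the 95% level. There were 3 such values in 55 checks, and chance gives about 1 in 20.

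The effect of adding aPD-1 on the TRBV3 share differed between the days, by -0.703 log2 (d105 minus d95, limma adjusted p 0.0437), by a test of the difference itself. The call is not firm: 22 of 27 fits without 1 library missed the threshold, as did counting each clonotype once (-0.163, adjusted p 0.411) and fitting without a filter on share (0.0648). Without PLX+PTX replicate 2 of d95 the value was -0.363, and without replicate 1 it was -1.04. The d95 side rests on PLX+PTX mice at 5.14%, 8.27% and 13.2% of normalised counts.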

How the results depend on the processing

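No paired analysis was possible because the replicate numbers only name the mice of a group, in accession order. The treatment differences of the TRBV3 share were near 0 and some changed sign without passing the threshold. For aPD-1 added at d105 the value was -0.006 with each clonotype counted once, and leaving out 1 library gave -0.007 to 0.044 (negative without NR replicate 1 or 2). For PLX added it was 0.037 at d105 with each clonotype counted once, 0.005 at d95 with DESeq2 on reads, and -0.512 to 0.165 at d95 with 1 library left out (positive without PLX+PTX replicate 2). For d95 R against NR that range was -0.159 to 0.005 (positive without R replicate 5). For aPD-1 added at d95 it was 0.378 to 1.055, and the TRBV3 pairs called ran from 0 to 11, the high values without PLX+PTX replicate 1. The day difference of the share was 0.182 with edgeR and 0.17 with DESeq2, neither past the threshold, and 0.424 to 0.567 with 1 library left out. The change of the aPD-1 effect between days was -0.163 (adjusted p 0.411) with each clonotype counted once, -0.703 (0.0648) with no filter on share, and -1.04 to -0.363 with 1 library left out. Of the 27 TRBV3 clonotypes found in 80% of libraries, 1 was called between days, against 56 of 392 with the 50% filter. The calls between days thus depended on the filter.

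Several differences turned. Between days, in reads, the TRBJ2 percent was -0.7338 and clonality -0.00607, and the inner cysteine percent, counted once per clonotype, was 0.1455. For TRBV3 minus the other segments, reads gave -3.918 (TRBJ2), -0.237 (residues 6 and 7), 1.281 (TRBJ1-2), -8.201 (TRBJ2-1), 6.422 (TRBJ2-2), -7.943 (TRBJ2-3), -5.615 (TRBJ2-4) and 21.8 (TRBJ2-7). Counting each clonotype once gave -1.362 (TRBJ2-1), 1.279 (TRBJ2-2), -1.909 (TRBJ2-3) and 5.062 (TRBJ2-7). The d95 libraries alone gave -1.428 (TRBJ2-1), 1.583 (TRBJ2-2), -0.7541 (TRBJ2-3), 3.739 (TRBJ2-7) and -0.0002223 (nucleotide forms). Mean length was 0.06481 in d105 libraries alone and 0.1532 with the other segments weighted equally, where TRBJ2-1 was -0.7591. Leaving TRBV1 out of the other segments was added after the values were seen and turned none of the differences that passed the threshold. The causes of these changes were not tested, beyond the change of weights itself. The few reads behind TRBV3 with TRBJ1-4, TRBJ1-5, TRBJ2-1, TRBJ2-3, TRBJ2-4 and TRBJ2-5 limit every statement on these pairs.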
